A study of Mus musculus with 9 samples.

Results

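The genes described here are 42 mouse genes whose proteins fill, dock, fuse and retrieve synaptic vesicles or hold the release site together. These genes were chosen by symbol for these known roles, with earlier results of these data known. All 42 were found in the deposited table of 14670 lines, where they take up 43 lines because *Pclo* has 2 of them. Expression was measured by RNA sequencing of embryonic cerebral cortex at embryonic day 16.5 (E16.5), in 3 libraries from *Fzd3* -/- embryos, 3 from *Celsr3* -/- embryos and 3 from controls labelled +/+. The comparisons ask which transcripts change in the cortex when either gene, a Frizzled receptor or a large cadherin that act together in the growth of axon tracts, is lost. All mice were on a mixed background of C57Bl/6 and CD1. The labels call the controls wild type, but the methods also allow heterozygous littermates. The *Fzd3* mutant allele lacks exon 3, so the gene-level value of *Fzd3* cannot check that label. For RNA extraction the labels name Trizol and the methods an RNeasy kit. The methods give 3 cortical samples of each genotype and at least 3 animals for animal experiments, but name no litters and do not state that each library came from its own animal, so P values measure only the spread between these samples. The values were deposited as counts of a gene per 1000000 reads (CPM). Over the listed genes they total 990141 to 1012199 CPM in a library, so the 1000000 is not exactly that library's own reads. Every value was a whole multiple of a step particular to its library, within 0.01 of a step. Each column held too few low values to establish that 1 step is 1 read. If it is, control libraries 1, 2 and 3 held 52266343, 61637621 and 39857305 reads on the listed genes. On that reading *Fzd3* mutant libraries 1, 2 and 3 held 42963627, 45848829 and 52249430 reads, and *Celsr3* mutant libraries 1, 2 and 4 held 60333846, 54974978 and 69600589. A level of 3 reads then lay between 0.0427 and 0.0753 CPM, a limit that covers counting error only, and the least abundant of the 43 lines, the second of *Pclo*, had a mean of 3.69 CPM over the 9 libraries.

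A vesicle is filled with transmitter by a vesicular transporter, is brought to the active zone by Rab3, RIM and liprin proteins, and is primed there by Munc13 proteins. It fuses when the vesicle protein synaptobrevin zips together with syntaxin and SNAP25 in a SNARE complex, once calcium binds a synaptotagmin, and the complex is then taken apart by NSF. Dynamin, amphiphysin, endophilin and synaptojanin help to retrieve the membrane, and in the embryonic cortex many of these genes are switched on in young neurons before most synapses form.

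Differences between genotypes were tested with limma, a linear model that shares information on variance among genes, on log2(CPM + 0.5) in a single fit of all 9 libraries. A log2 fold change of 1 is a doubling, and the added 0.5 CPM understates changes of genes with low values. Adjusted P values are two-sided and were corrected by the Benjamini-Hochberg method over all 14670 lines, and a gene is said to have passed the test when its adjusted P was below 0.05. In libraries made from whole tissue, fewer cells of a type and less RNA per cell cannot be told apart. *Celsr3* itself was at 196, 243 and 214 CPM in control libraries 1, 2 and 3, 253, 213 and 255 CPM in the *Fzd3* mutants and 122, 139 and 118 CPM in the *Celsr3* mutants. All 3 *Celsr3* mutant libraries were below all controls, with a log2 fold change of -0.78 (s.e. 0.0910, limma adjusted P = 0.00180), where s.e. is the standard error. The replicate number of the labels was also used as a term of the fit, called the replicate block below. Number 4 occurs only in *Celsr3* mutants, so the block gives that library a term of its own. It then adds nothing to the comparisons. With the replicate block the log2 fold change of *Celsr3* was -0.71 and no longer passed (limma adjusted P = 0.0698, range over 18 alternative limma fits 0.00136 to 0.0698). *Fzd3* was at 58.0, 67.7 and 46.9 CPM in control libraries 1, 2 and 3, 46.5, 39.8 and 59.6 CPM in the *Fzd3* mutants and 52.1, 61.1 and 54.8 CPM in the *Celsr3* mutants. The *Fzd3* mutant and control libraries overlapped, with a log2 fold change of -0.24 (95% interval -0.57 to 0.08, limma adjusted P = 0.240), and without *Fzd3* mutant library 3 it was -0.40 (limma adjusted P = 0.0457, range over the alternatives 0.0457 to 0.633). Libraries of a genotype were not alike in every respect. Summed markers of vessels, meninges and blood were at 2405, 2559.6 and 1669 CPM in *Fzd3* mutant libraries 1, 2 and 3, where library 3 was low, and at 2499, 1666 and 2797 CPM in *Celsr3* mutant libraries 1, 2 and 4, where library 2 was low.

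Against control, 23 of the 43 lines passed the test in *Fzd3* mutants (53.5%), where 29.8% of all 14670 lines did. Of these, 21 were higher, where 15.0% of all lines were, and 2 were lower, where 14.8% were. The median log2 fold change of the 43 lines was 0.26, against -0.00 over all lines, and 39 of the 43 were positive. In 25 of the 43 the *Fzd3* mutant libraries did not overlap the controls, 22 of them higher and 3 lower (*Slc17a7*, *Unc13b* and *Rims2*), where 43.8% of all lines did not overlap. Summed over the members, expression was 4009.6, 3984 and 4282 CPM in the control libraries, 5301, 5088 and 4888 CPM in the *Fzd3* mutants and 4292, 4024 and 3884 CPM in the *Celsr3* mutants. All 3 *Fzd3* mutant sums lay above all 6 others, with means of 5092 ± 206 CPM in *Fzd3* mutants and 4092 ± 165 CPM in controls (s.d., n = 3). In *Celsr3* mutants against the same control libraries, 0 of the 43 lines passed the limma test, where 0.307% of all lines did. At an unadjusted limma P below 0.05 there were 3 of 43 (*Rims2*, *Rimbp2* and *Unc13b*, all lower), where 5.45% of all lines were. The median in this comparison was -0.03, against -0.00 over all lines, and 17 of the 43 were positive. Both mutants were compared with the same 3 controls, so these comparisons are not independent of each other. In the direct comparison of *Fzd3* with *Celsr3* mutants, 28 of the 43 lines passed, where 29.6% of all lines did. Of these, 27 were higher in *Fzd3* mutants, where 15.3% of all lines were, and *Unc13b* was lower, where 14.3% were. The median of this difference was 0.29, against -0.00 over all lines. The number of members past the test against control was lowest, at 21, without *Fzd3* mutant library 1 or 2 or control library 2, and highest, at 29, without control library 3, and in the direct comparison it ran from 21 without *Fzd3* mutant library 1 to 31 without *Celsr3* mutant library 1.

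**Figure D1:**
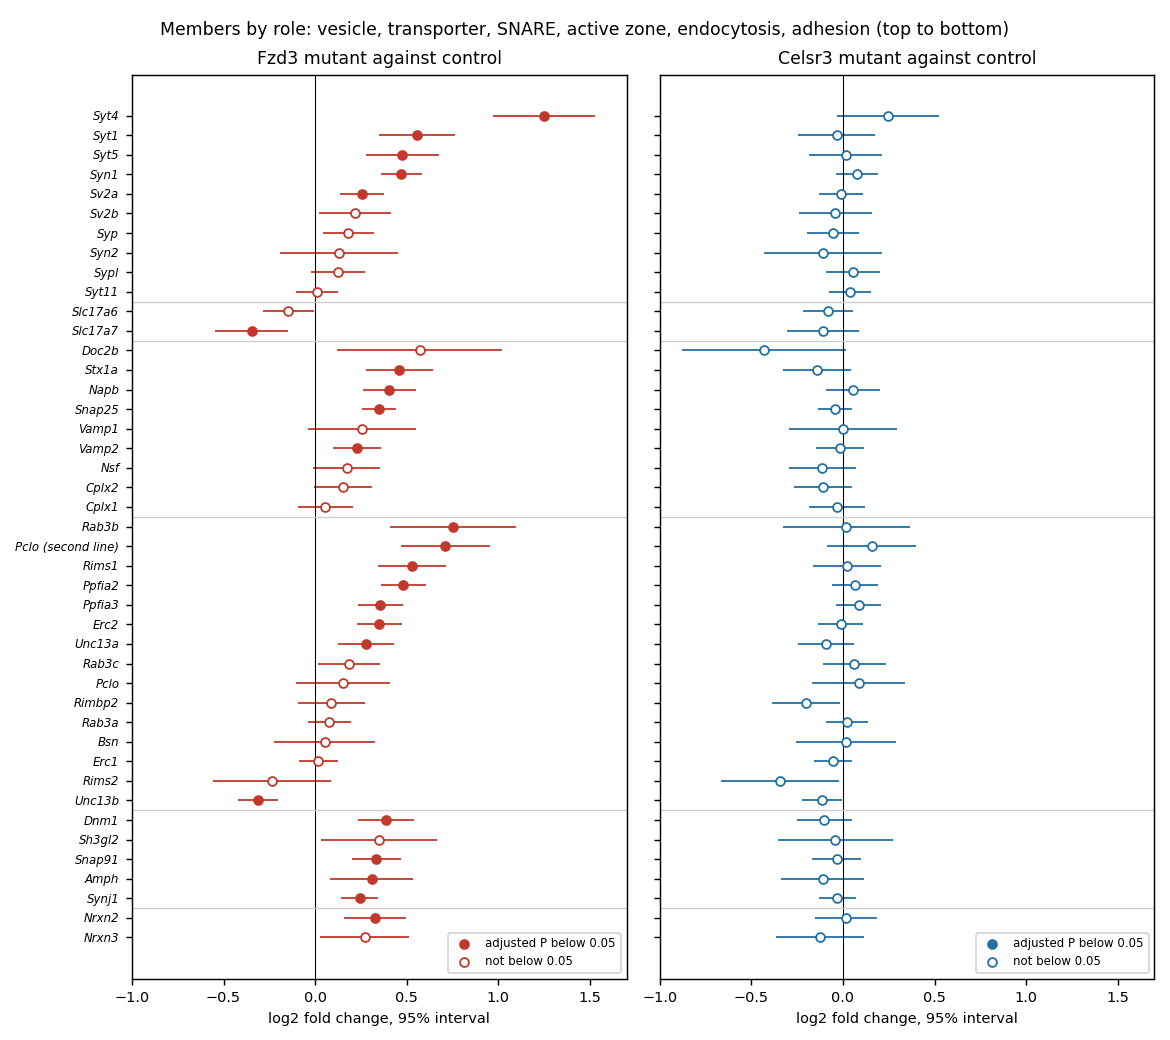
Log2 fold change (horizontal axis, on log2(CPM + 0.5)) of each of the 43 lines in *Fzd3* mutants (left) and *Celsr3* mutants (right) against control, with 95% intervals and filled points where the limma adjusted P was below 0.05. On the left 23 points are filled, 21 of them to the right of 0, and on the right none is.

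The members also differed between libraries of a single genotype. Control library 3 held the highest of the 3 control values for 29 of the 43 lines (67.4%), where it did so for 36.0% of all lines, and control library 2 the lowest for 24 (55.8%), against 34.1% of all lines. Among *Fzd3* mutants, library 1 was highest for 29 lines (67.4%), against 32.7% of all lines, and library 3 was lowest for 29 (67.4%), against 37.3%. Among *Celsr3* mutants, library 1 was highest for 27 lines (62.8%), against 35.0%, and library 4 was lowest for 27 (62.8%), against 35.5%. Within each genotype most members thus stood high or low in the same library. The part of this shared order in the differences between genotypes was not tested.

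Because so many members differed in the same direction, the sequence before their transcription starts is shown for 5 of them. The table of RefSeq promoters on GRCm38.p6 used here had entries for 35 of the 42 members, 46 promoters in all, and none for *Doc2b*, *Nrxn2*, *Rims2*, *Snap25*, *Syt4*, *Syt5* and *Vamp2*. In up to 250 bases before each start, 4 short motifs were searched on both strands. The cAMP response element, TGACGTCA, was in 2 of the 46 promoters (4.35%), those of *Sh3gl2* and *Syn1*, and in 2.56% of 12758 promoters of listed genes. The GC box, GGGGCGGGG or CCCCGCCCC, was in 10 of the 46 (21.7%), against 18.9%, and the CCAAT box, CCAAT or ATTGG, in 8 (17.4%), against 35.3%. The first part of the RE1 element, through which the repressor REST silences neuronal genes outside neurons, was searched as CAGCACC or GGTGCTG and was in 2 of the 46 (4.35%), those of *Ppfia3* and *Syn1*, against 5.91%. The sequences of *Syn1* and *Ppfia2* are shown as members that were higher in *Fzd3* mutants, those of *Unc13a* and *Unc13b* as paralogs that differed in opposite directions, and that of *Slc17a7* as a member that was lower. They lie at chrX:20921005-20921168 on the minus strand, chr10:106470060-106470309 on the plus strand, chr8:71671758-71672007 on the minus strand, chr4:43058703-43058952 on the plus strand and chr7:45163671-45163920 on the plus strand. For *Syn1*, 86 of the 250 bases lie inside an annotated gene and were left out. Capitals mark the matches to these motifs, and in *Slc17a7* a pair of GC boxes overlap. A match is a description of the letters and not a site of binding.
Syn1: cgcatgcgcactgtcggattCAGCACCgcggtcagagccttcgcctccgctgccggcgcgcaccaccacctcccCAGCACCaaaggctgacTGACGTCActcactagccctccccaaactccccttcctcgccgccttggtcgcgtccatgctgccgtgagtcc
Ppfia2: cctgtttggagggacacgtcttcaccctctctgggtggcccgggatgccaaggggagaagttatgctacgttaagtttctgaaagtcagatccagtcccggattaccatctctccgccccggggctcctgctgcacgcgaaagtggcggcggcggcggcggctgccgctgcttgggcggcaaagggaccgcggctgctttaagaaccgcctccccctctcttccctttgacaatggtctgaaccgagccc
Unc13a: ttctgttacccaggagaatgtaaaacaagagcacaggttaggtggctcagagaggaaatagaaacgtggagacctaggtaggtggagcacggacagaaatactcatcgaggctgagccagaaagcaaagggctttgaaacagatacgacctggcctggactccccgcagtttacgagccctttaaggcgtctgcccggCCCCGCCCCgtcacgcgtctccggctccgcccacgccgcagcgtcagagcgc
Unc13b: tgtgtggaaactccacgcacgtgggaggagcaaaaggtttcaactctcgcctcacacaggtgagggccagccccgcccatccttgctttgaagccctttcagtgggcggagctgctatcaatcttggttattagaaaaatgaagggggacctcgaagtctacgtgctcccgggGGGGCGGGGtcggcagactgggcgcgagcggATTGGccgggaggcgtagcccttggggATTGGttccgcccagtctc
Slc17a7: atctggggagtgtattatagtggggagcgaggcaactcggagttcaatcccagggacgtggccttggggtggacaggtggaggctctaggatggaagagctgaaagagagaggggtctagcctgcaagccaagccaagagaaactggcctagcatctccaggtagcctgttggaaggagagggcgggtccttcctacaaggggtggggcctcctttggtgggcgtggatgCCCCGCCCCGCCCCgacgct

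Levels of different members were compared as CPM per kb of annotated exon, a measure that corrects for gene length. In controls the highest level was that of *Rab3a*, at 68.2 ± 1.89 CPM per kb (s.d., n = 3). *Syt4* came next at 60.0 ± 10.2, then *Syt11* at 50.6 ± 2.45, *Vamp2* at 37.8 ± 3.28 and *Cplx2* at 35.9 ± 3.34 CPM per kb. In this order *Rab3a* and *Syt4*, *Syt4* and *Syt11*, and *Vamp2* and *Cplx2* differed by less than the larger s.d. of the pair, and *Syt11* and *Vamp2* by more. The lowest level was that of *Vamp1*, at 0.415 ± 0.0348 CPM per kb, followed by *Doc2b* at 2.29 ± 0.403 and *Sypl* at 2.58 ± 0.0692. *Syn1*, *Cplx1*, *Sv2a*, *Syt5*, *Snap25* and *Syp* lay between 21.7 and 27.9 CPM per kb in controls. In *Fzd3* mutants *Syt4* was the highest, at 142 ± 8.41 CPM per kb, with *Rab3a* at 72.0 ± 4.48.

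**Figure D2:**
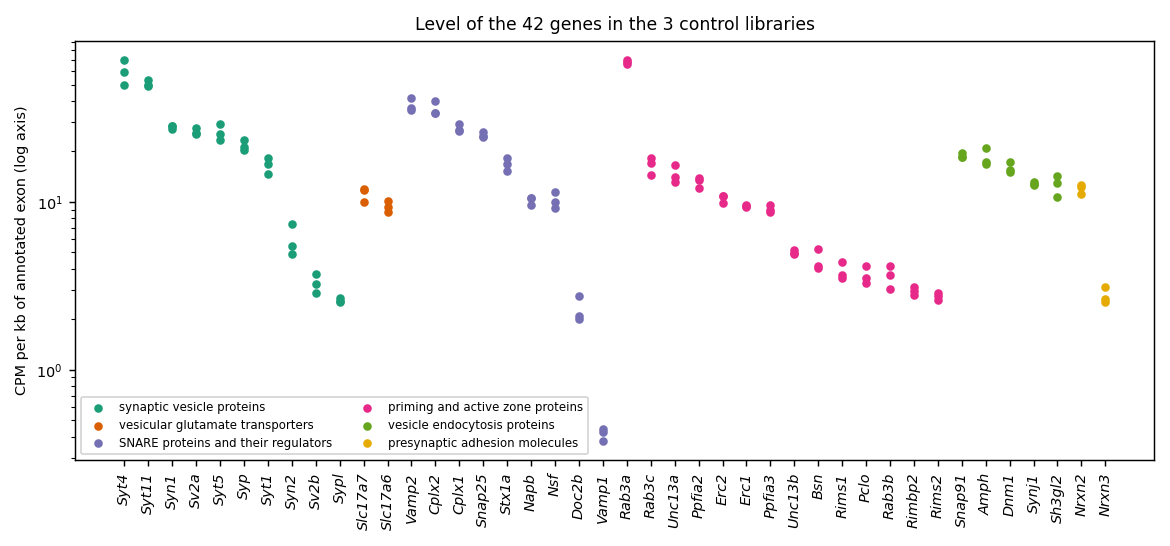
Level of 42 genes in the 3 control libraries, in CPM per kb of annotated exon on a log axis, with a point for each library and colours for the 6 roles. *Rab3a* is highest and *Vamp1* lowest.

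Of the 10 genes of synaptic vesicle proteins, 5 rose in *Fzd3* mutants, where 15.0% of all lines were higher. *Syt4* (XLOC_015014) encodes a synaptotagmin that responds weakly to calcium and sits on secretory vesicles. It was at 233, 194 and 274 CPM in control libraries 1, 2 and 3, 584, 554 and 518 CPM in the *Fzd3* mutants and 332, 243 and 256 CPM in the *Celsr3* mutants. All 3 *Fzd3* mutant libraries lay above all others, and the *Celsr3* mutants ranged from inside to above the control range. The log2 fold change was 1.25 (s.e. 0.126, limma adjusted P = 6.92e-05) in *Fzd3* mutants and 0.25 (limma adjusted P = 0.947) in *Celsr3* mutants, and the direct difference between the mutants was 1.00 (limma adjusted P = 0.000298). *Syt1* (XLOC_003300), the calcium sensor of fast release, was at 139.7, 122 and 153 CPM in control libraries 1, 2 and 3, 218, 209 and 183 CPM in the *Fzd3* mutants and 150.3, 129 and 125 CPM in the *Celsr3* mutants. Every *Fzd3* mutant value exceeded every control and *Celsr3* mutant value, with a log2 fold change of 0.56 (s.e. 0.0944, limma adjusted P = 0.00147) against control and -0.04 (95% interval -0.24 to 0.17, limma adjusted P = 1.000) for *Celsr3* mutants. *Syt5* (XLOC_029536), another synaptotagmin that binds calcium, was at 60.2, 55.5 and 69.1 CPM in control libraries 1, 2 and 3, 92.3, 86.8 and 78.1 CPM in the *Fzd3* mutants and 65.0, 65.6 and 55.8 CPM in the *Celsr3* mutants. Its *Fzd3* mutant values again lay above the other 6, and the log2 fold change was 0.48 (s.e. 0.0906, limma adjusted P = 0.00288). *Syn1* (XLOC_036414), whose promoter is among those printed above, encodes synapsin, which tethers vesicles in the reserve pool. It was at 93.0, 89.6 and 93.4 CPM in control libraries 1, 2 and 3, 134, 129.9 and 119.6 CPM in the *Fzd3* mutants and 101, 97.3 and 92.4 CPM in the *Celsr3* mutants. The *Fzd3* mutants were above all other libraries, with a log2 fold change of 0.47 (s.e. 0.0518, limma adjusted P = 0.000118), and the *Celsr3* mutants overlapped the controls, with 0.08 (95% interval -0.04 to 0.19, limma adjusted P = 1.000).

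*Syt11* (XLOC_020917), the closest relative of *Syt4*, likewise responds weakly to calcium. It was at 254, 278 and 258 CPM in control libraries 1, 2 and 3, 271, 272 and 252 CPM in the *Fzd3* mutants and 272, 284 and 255 CPM in the *Celsr3* mutants. The 3 genotypes overlapped, and the log2 fold change in *Fzd3* mutants was 0.01 (95% interval -0.11 to 0.12, limma adjusted P = 0.921). *Sv2a*, a vesicle glycoprotein, rose from a mean of 121 ± 5.38 CPM in controls to 145 ± 5.77 CPM in *Fzd3* mutants (s.d., n = 3), a log2 fold change of 0.26 (limma adjusted P = 0.00492). For its paralog *Sv2b* the log2 fold change was 0.22 (95% interval 0.02 to 0.41, limma adjusted P = 0.0912). *Syp* encodes synaptophysin, a major protein of the vesicle membrane, and its log2 fold change was 0.18 (95% interval 0.04 to 0.32, limma adjusted P = 0.0528). Without control library 3 both passed, *Sv2b* at a log2 fold change of 0.31 (limma adjusted P = 0.0201, range over the alternatives 0.0201 to 0.315) and *Syp* at 0.24 (limma adjusted P = 0.0167, range 0.0167 to 0.194). *Syp* also passed without *Fzd3* mutant library 3 (limma adjusted P = 0.0181), after rescaling each library to the same total (0.0408) and after quantile normalization (0.0474). For *Syn2*, a paralog of *Syn1*, the log2 fold change was 0.13 (95% interval -0.19 to 0.45, limma adjusted P = 0.544), and for *Sypl*, a relative of synaptophysin found in many tissues, 0.13 (95% interval -0.02 to 0.27, limma adjusted P = 0.180). The 10 genes summed to 1096, 1044 and 1203 CPM in the control libraries, 1697, 1625 and 1501 CPM in the *Fzd3* mutants and 1254, 1133 and 1086 CPM in the *Celsr3* mutants.

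**Figure D3:**
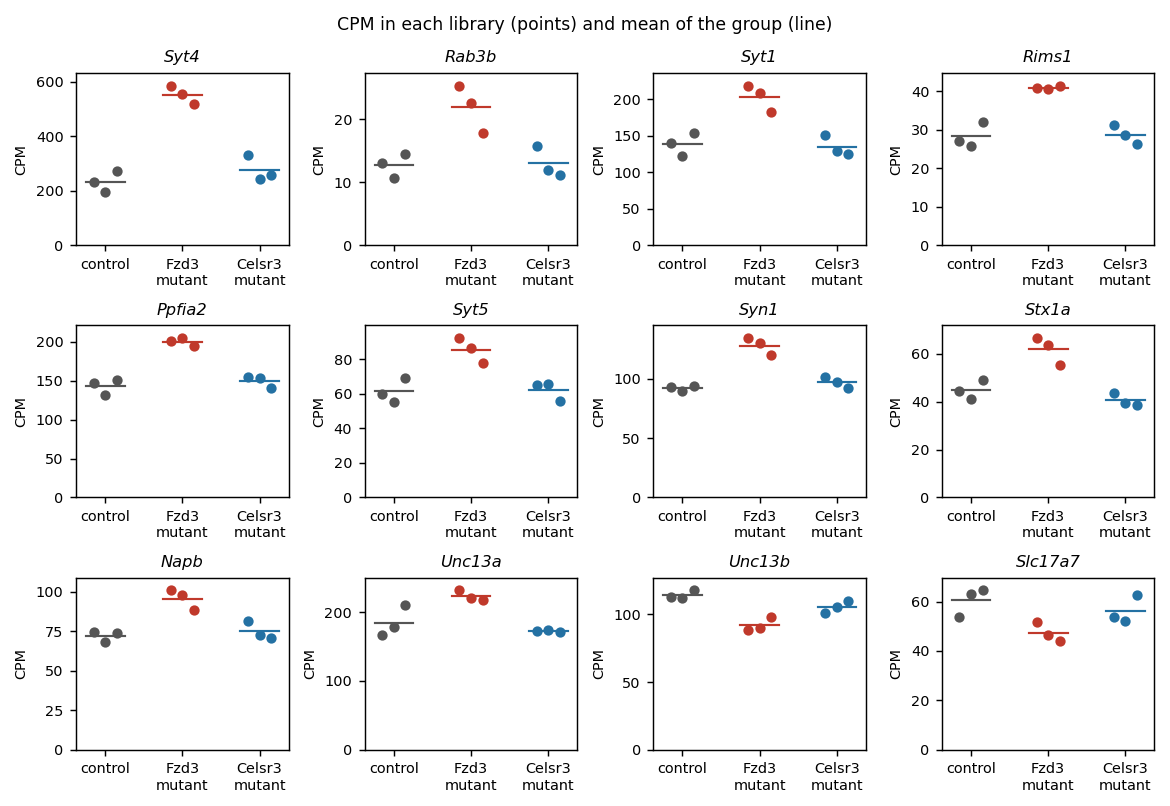
Expression of 12 members in each of the 9 libraries, in CPM on axes that start at 0, with a point for each library and a line at the mean of each genotype. For all but *Unc13b* and *Slc17a7* the 3 *Fzd3* mutant points lie above the 3 control points.

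The vesicular glutamate transporters fill vesicles with glutamate, and neither of the pair was higher in *Fzd3* mutants. *Slc17a7* (XLOC_028749), the main transporter of mature cortical neurons, was at 53.8, 63.2 and 64.5 CPM in control libraries 1, 2 and 3, 51.8, 46.6 and 43.9 CPM in the *Fzd3* mutants and 53.8, 51.9 and 62.7 CPM in the *Celsr3* mutants. The 3 *Fzd3* mutant libraries were below all controls and all *Celsr3* mutants, while the *Celsr3* mutants overlapped the controls. The log2 fold change was -0.35 (s.e. 0.0901, limma adjusted P = 0.0142) in *Fzd3* mutants, -0.11 (95% interval -0.31 to 0.09, limma adjusted P = 1.000) in *Celsr3* mutants and -0.24 (limma adjusted P = 0.0675) between the mutants. Without control library 2 the change in *Fzd3* mutants was -0.31 and did not pass (limma adjusted P = 0.0527, range over the alternatives 0.00832 to 0.0527), and without control library 1 the difference between the mutants did (limma adjusted P = 0.0495, range 0.0495 to 0.354). *Slc17a6*, the main transporter of thalamic neurons, had a log2 fold change of -0.15 (95% interval -0.28 to -0.01, limma adjusted P = 0.103) in *Fzd3* mutants and passed only without control library 2, at -0.20 (limma adjusted P = 0.0462, range 0.0462 to 0.302). Together they summed to 104, 110.0 and 119 CPM in the control libraries, 95.6, 91.4 and 92.0 CPM in the *Fzd3* mutants and 99.7, 101 and 111 CPM in the *Celsr3* mutants.

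Of the 9 genes of SNARE proteins and their regulators, 4 rose in *Fzd3* mutants, against 15.0% of all lines, and 7 passed without control library 3. *Stx1a* (XLOC_025026), a syntaxin of the presynaptic membrane, was at 44.6, 40.9 and 49.0 CPM in control libraries 1, 2 and 3, 66.5, 63.9 and 55.3 CPM in the *Fzd3* mutants and 43.8, 39.4 and 38.5 CPM in the *Celsr3* mutants. The *Fzd3* mutants lay above all other libraries, with a log2 fold change of 0.46 (s.e. 0.0842, limma adjusted P = 0.00228). *Napb* (XLOC_019340), an adaptor through which NSF grips the spent SNARE complex, was at 74.5, 68.0 and 74.1 CPM in control libraries 1, 2 and 3, 101, 97.8 and 88.8 CPM in the *Fzd3* mutants and 81.6, 72.7 and 70.8 CPM in the *Celsr3* mutants. Its *Fzd3* mutant values were also the highest, with a log2 fold change of 0.41 (s.e. 0.0668, limma adjusted P = 0.00125). *Vamp2* (XLOC_004073), the main synaptobrevin of brain synapses and among the most abundant members, was at 138, 135 and 158 CPM in control libraries 1, 2 and 3, 168, 174 and 163 CPM in the *Fzd3* mutants and 143, 147 and 136 CPM in the *Celsr3* mutants. Each *Fzd3* mutant value was above every control, with a log2 fold change of 0.23 (s.e. 0.0590, limma adjusted P = 0.0138). It did not pass without *Fzd3* mutant library 2 (limma adjusted P = 0.0566), control library 1 (0.0537) or control library 2 (0.0555, range over the alternatives 0.00153 to 0.0566). *Snap25*, the partner of syntaxin on the target membrane, rose from 170.5 ± 7.00 to 217 ± 7.95 CPM (s.d., n = 3), a log2 fold change of 0.35 (s.e. 0.0422, limma adjusted P = 0.000200), and was at 165 ± 1.45 CPM in *Celsr3* mutants.

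*Cplx2* (XLOC_007983), a complexin that binds the assembled SNARE complex, was at 168, 167 and 196 CPM in control libraries 1, 2 and 3, 205, 201 and 182 CPM in the *Fzd3* mutants and 176, 156 and 158 CPM in the *Celsr3* mutants. Control library 3 lay within the *Fzd3* mutant range, and the log2 fold change was 0.15 (95% interval -0.00 to 0.31, limma adjusted P = 0.132). Without control library 3 it was 0.23 and passed (limma adjusted P = 0.0231, range over the alternatives 0.0231 to 0.342). *Doc2b* (XLOC_005626), a calcium sensor of spontaneous release, was chosen after its values were seen. It was at 8.80, 9.11 and 12.0 CPM in control libraries 1, 2 and 3, 18.7, 17.9 and 9.87 CPM in the *Fzd3* mutants and 6.81, 7.73 and 7.08 CPM in the *Celsr3* mutants. *Fzd3* mutant library 3 lay within the control range while the other *Fzd3* mutants were above it, and all 3 *Celsr3* mutants were below every control. The log2 fold change was 0.57 (95% interval 0.12 to 1.02, limma adjusted P = 0.0560) in *Fzd3* mutants and -0.43 (95% interval -0.88 to 0.02, limma adjusted P = 0.936) in *Celsr3* mutants, and the direct difference between the mutants was 1.00 (limma adjusted P = 0.00434). Against control the difference in *Fzd3* mutants passed without *Fzd3* mutant library 3, at 0.86 (limma adjusted P = 0.00103), and without control library 3, at 0.71 (limma adjusted P = 0.0354, range over the alternatives 0.00103 to 0.207). *Nsf*, the ATPase that separates SNARE complexes, had a log2 fold change of 0.17 (95% interval -0.01 to 0.35, limma adjusted P = 0.143) and passed without control library 3 (limma adjusted P = 0.0280, range 0.0280 to 0.428). For *Cplx1*, a paralog of *Cplx2*, it was 0.06 (95% interval -0.10 to 0.21, limma adjusted P = 0.578), and for *Vamp1*, a paralog of *Vamp2*, 0.26 (95% interval -0.04 to 0.55, limma adjusted P = 0.174). The value of *Vamp1* ran from 0.11 to 0.34 over the alternatives (limma adjusted P 0.13 to 0.55). The 9 genes summed to 757, 724 and 822 CPM in the control libraries, 942, 946 and 868 CPM in the *Fzd3* mutants and 769, 727 and 710.5 CPM in the *Celsr3* mutants.

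Priming and active zone proteins were the largest role, with 14 genes on 15 lines, of which 7 lines rose in *Fzd3* mutants and 1 fell, against 15.0% and 14.8% of all lines. *Unc13a* and *Unc13b* encode Munc13 proteins, which open syntaxin and make docked vesicles ready to fuse, and they differed in opposite directions. *Unc13b* (XLOC_021684) was at 113, 112 and 118 CPM in control libraries 1, 2 and 3, 88.3, 89.9 and 97.8 CPM in the *Fzd3* mutants and 101, 105 and 109.9 CPM in the *Celsr3* mutants. All *Fzd3* mutant values lay below all *Celsr3* mutant values, which in turn lay below all controls. The log2 fold change was -0.31 (s.e. 0.0499, limma adjusted P = 0.00103) in *Fzd3* mutants, -0.12 (limma adjusted P = 0.898) in *Celsr3* mutants and -0.20 (limma adjusted P = 0.0126) between the mutants. The difference between the mutants did not pass without *Fzd3* mutant library 1 (limma adjusted P = 0.0569) or *Celsr3* mutant library 4 (0.0547, range over the alternatives 0.00505 to 0.0569). *Unc13a* (XLOC_032434), taken as its paralog after the values were seen, was at 166, 178 and 209.8 CPM in control libraries 1, 2 and 3, 232, 221 and 217 CPM in the *Fzd3* mutants and 172, 174 and 171 CPM in the *Celsr3* mutants. Every *Fzd3* mutant library was above every other library, with a log2 fold change of 0.28 (s.e. 0.0697, limma adjusted P = 0.0118), which without *Fzd3* mutant library 1 was 0.25 (limma adjusted P = 0.0517, range over the alternatives 0.000370 to 0.0517). Both promoters printed above hold a GC box, and that of *Unc13b* also holds the CCAAT box.

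*Rims1* (XLOC_001070) encodes RIM, a scaffold that joins vesicles, Munc13 and calcium channels. It was at 27.0, 25.9 and 32.1 CPM in control libraries 1, 2 and 3, 40.8, 40.5 and 41.4 CPM in the *Fzd3* mutants and 31.2, 28.6 and 26.3 CPM in the *Celsr3* mutants. The *Fzd3* mutants lay within a narrow range above all other libraries, with a log2 fold change of 0.53 (s.e. 0.0846, limma adjusted P = 0.00105). For its paralog *Rims2* the log2 fold change was -0.23 (95% interval -0.56 to 0.09, limma adjusted P = 0.258) in *Fzd3* mutants, although the libraries did not overlap. In *Celsr3* mutants it was -0.34 (95% interval -0.67 to -0.02, limma adjusted P = 0.884), at an unadjusted limma P of 0.0390. Over the alternatives that value ran from -0.55 to -0.18 (limma adjusted P 0.0686 to 0.999). In the direct comparison *Rims2* did not differ by the test (limma adjusted P = 0.616), except without *Celsr3* mutant library 2, the highest of its genotype (log2 fold change 0.31, limma adjusted P = 0.0459, range over the alternatives 0.0459 to 0.922). *Rimbp2*, which links RIM to calcium channels, had a log2 fold change of 0.09 (95% interval -0.09 to 0.27, limma adjusted P = 0.459) in *Fzd3* mutants. In *Celsr3* mutants it was -0.20 (95% interval -0.39 to -0.02, limma adjusted P = 0.872), at an unadjusted limma P of 0.0340, with all 3 libraries below all controls. The direct difference of *Rimbp2* was 0.29 (limma adjusted P = 0.0228), which did not pass without *Fzd3* mutant library 1 (limma adjusted P = 0.0868) or *Celsr3* mutant library 2 (0.0829, range over the alternatives 0.0108 to 0.0868).

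The Rab3 proteins are small GTPases that carry vesicles to RIM. *Rab3b* (XLOC_022171) was at 13.0, 10.7 and 14.6 CPM in control libraries 1, 2 and 3, 25.3, 22.6 and 17.9 CPM in the *Fzd3* mutants and 15.8, 12.0 and 11.1 CPM in the *Celsr3* mutants. The *Fzd3* mutants were above all other libraries, with a log2 fold change of 0.75 (s.e. 0.157, limma adjusted P = 0.00461). *Rab3a* (XLOC_031673), the most abundant member per kb in controls, was at 147, 152 and 156 CPM in control libraries 1, 2 and 3, 166, 166 and 149 CPM in the *Fzd3* mutants and 160.1, 157 and 146 CPM in the *Celsr3* mutants. Its genotypes overlapped, with a log2 fold change of 0.08 (95% interval -0.04 to 0.19, limma adjusted P = 0.300) in *Fzd3* mutants and 0.02 (95% interval -0.09 to 0.14, limma adjusted P = 1.000) in *Celsr3* mutants. For *Rab3c* the *Fzd3* mutants were not below any control, but the log2 fold change of 0.18 (95% interval 0.01 to 0.36, limma adjusted P = 0.0969) passed only without control library 1, at 0.26 (limma adjusted P = 0.0314, range over the alternatives 0.0314 to 0.301).

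The liprins are scaffolds that help to build the active zone. *Ppfia2* (XLOC_002569), whose promoter is printed above and holds none of the 4 motifs, was at 147, 132 and 151 CPM in control libraries 1, 2 and 3, 201, 205 and 195 CPM in the *Fzd3* mutants and 154, 154 and 141 CPM in the *Celsr3* mutants. The *Fzd3* mutant values stood above the other 6, with a log2 fold change of 0.48 (s.e. 0.0564, limma adjusted P = 0.000163). *Ppfia3* rose as well, from 71.7 ± 3.75 to 92.0 ± 5.96 CPM (s.d., n = 3), a log2 fold change of 0.36 (limma adjusted P = 0.00103). *Bsn* and *Pclo* encode Bassoon and Piccolo, the giant scaffolds of the active zone. For *Bsn* the log2 fold change was 0.05 (95% interval -0.22 to 0.33, limma adjusted P = 0.785), and for the main line of *Pclo* (XLOC_024264) it was 0.15 (95% interval -0.10 to 0.41, limma adjusted P = 0.357). The second line of *Pclo* (XLOC_024265) was at 3.01, 2.76 and 2.78 CPM in control libraries 1, 2 and 3, 5.04, 4.62 and 5.31 CPM in the *Fzd3* mutants and 3.54, 3.08 and 3.09 CPM in the *Celsr3* mutants. Its *Fzd3* mutant values were the highest, with a log2 fold change of 0.71 (s.e. 0.111, limma adjusted P = 0.000921), and its *Celsr3* mutant values also lay above the controls, with 0.16 (95% interval -0.09 to 0.40, limma adjusted P = 1.000). The table does not say which stretch of the gene that line covers. *Erc2*, an ELKS scaffold of the active zone, rose from 102 ± 5.88 to 130.2 ± 3.56 CPM (s.d., n = 3), a log2 fold change of 0.35 (limma adjusted P = 0.00103). For *Erc1*, its more widely expressed paralog, the log2 fold change was 0.02 (95% interval -0.09 to 0.12, limma adjusted P = 0.828). The 15 lines summed to 1364, 1376 and 1377 CPM in the control libraries, 1611, 1527 and 1553 CPM in the *Fzd3* mutants and 1409, 1369 and 1314 CPM in the *Celsr3* mutants.

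Of the 5 genes for retrieval of vesicle membrane, 4 rose in *Fzd3* mutants, against 15.0% of all lines. *Dnm1*, the dynamin that pinches vesicles off, rose from 83.8 ± 6.28 to 109.6 ± 6.40 CPM (s.d., n = 3), a log2 fold change of 0.39 (limma adjusted P = 0.00195). For *Snap91*, an adaptor that brings clathrin to the membrane, the means were 172 ± 5.71 and 218 ± 16.2 CPM, a log2 fold change of 0.33 (limma adjusted P = 0.00225). *Synj1*, the lipid phosphatase that helps to strip the clathrin coat, rose from 104 ± 1.94 to 123 ± 3.24 CPM, a log2 fold change of 0.24 (limma adjusted P = 0.00291). *Amph* (XLOC_007681), amphiphysin, which recruits dynamin, was added after its values were seen. It was at 77.9, 76.6 and 94.8 CPM in control libraries 1, 2 and 3, 109.5, 109 and 90.5 CPM in the *Fzd3* mutants and 86.7, 73.5 and 70.4 CPM in the *Celsr3* mutants. *Fzd3* mutant library 3 lay below control library 3, and the log2 fold change was 0.31 (s.e. 0.103, limma adjusted P = 0.0423). This rise did not pass without *Celsr3* mutant library 2 (limma adjusted P = 0.0537), *Fzd3* mutant library 1 (0.144) or 2 (0.136), or control library 1 (0.132) or 2 (0.139). Nor did it pass without the variance trend (limma adjusted P = 0.0870) or with the replicate block (0.0695, range over the alternatives 0.0116 to 0.144). For *Sh3gl2*, an endophilin, the *Fzd3* mutants did not overlap the controls, but the log2 fold change was 0.35 (95% interval 0.03 to 0.66, limma adjusted P = 0.0895). Against *Celsr3* mutants it was 0.39 (limma adjusted P = 0.0608) and passed without *Celsr3* mutant library 1 (limma adjusted P = 0.0361, range 0.0361 to 0.216). The 5 genes summed to 504, 522 and 552 CPM in the control libraries, 681, 649 and 647 CPM in the *Fzd3* mutants and 543, 494 and 479.6 CPM in the *Celsr3* mutants.

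The neurexins are presynaptic adhesion molecules that bind partners across the synaptic cleft. *Nrxn2* rose from 166 ± 11.7 to 208 ± 18.6 CPM in *Fzd3* mutants (s.d., n = 3), a log2 fold change of 0.33 (limma adjusted P = 0.00899). Its direct difference from *Celsr3* mutants was 0.31 (limma adjusted P = 0.0111), and did not pass without *Fzd3* mutant library 1 (limma adjusted P = 0.0524) or with the replicate block (0.0770, range over the alternatives 0.00534 to 0.0770). For *Nrxn3* the log2 fold change against control was 0.27 (95% interval 0.03 to 0.51, limma adjusted P = 0.0861), and it passed without *Fzd3* mutant library 3 (limma adjusted P = 0.0388) or control library 3 (0.0360, range 0.0360 to 0.287). The pair summed to 185, 209 and 209 CPM in the control libraries, 275, 250.3 and 227 CPM in the *Fzd3* mutants and 217, 200.1 and 182 CPM in the *Celsr3* mutants.

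Between paralogs, the share of the first gene in its pair was computed in each library from CPM per kb, a measure that does not depend on the scaling of libraries. Of 12 pairs, 3 had *Fzd3* mutant shares that did not overlap the controls. *Unc13a* made up 72.6, 74.1 and 76.2% of its sum with *Unc13b* in the control libraries, 82.5, 81.6 and 80.0% in the *Fzd3* mutants and 75.3, 74.8 and 73.7% in the *Celsr3* mutants. The *Fzd3* mutant shares were above all others, with means of 81.4 ± 1.26% against 74.3 ± 1.83% in controls (s.d., n = 3). *Rims1* made up 57.0, 55.0 and 62.5% of its sum with *Rims2* in the control libraries, 68.2, 72.1 and 70.8% in the *Fzd3* mutants and 67.6, 57.5 and 67.4% in the *Celsr3* mutants. Its *Fzd3* mutant shares were again the highest, and the *Celsr3* mutant shares reached from the control range to above it. *Erc1* made up 46.7, 49.5 and 46.1% of its sum with *Erc2* in the control libraries, 42.0, 40.6 and 42.6% in the *Fzd3* mutants and 46.7, 45.6 and 48.0% in the *Celsr3* mutants. Here the *Fzd3* mutant shares were the lowest. The exact permutation P was 0.1 for each of these, the smallest that 3 libraries against 3 can give, and 0.4 after adjustment over 36 comparisons, so none passed. In *Celsr3* mutants only the share of *Cplx1* with *Cplx2* did not overlap the controls, at means of 44.8 ± 0.968% against 43.5 ± 0.907% (exact permutation P = 0.1, adjusted 0.4). Between the mutants 5 shares did not overlap, those of *Unc13a*, *Rims1* and *Ppfia2* higher and those of *Cplx1* and *Erc1* lower in *Fzd3* mutants (exact permutation P = 0.1 each, adjusted 0.4). The other pairs were *Slc17a6* with *Slc17a7*, *Rab3a* with *Rab3c*, *Vamp1* with *Vamp2*, *Syn1* with *Syn2*, *Sv2a* with *Sv2b*, *Bsn* with *Pclo* and *Nrxn2* with *Nrxn3*, and their shares overlapped in every comparison.

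**Figure D4:**
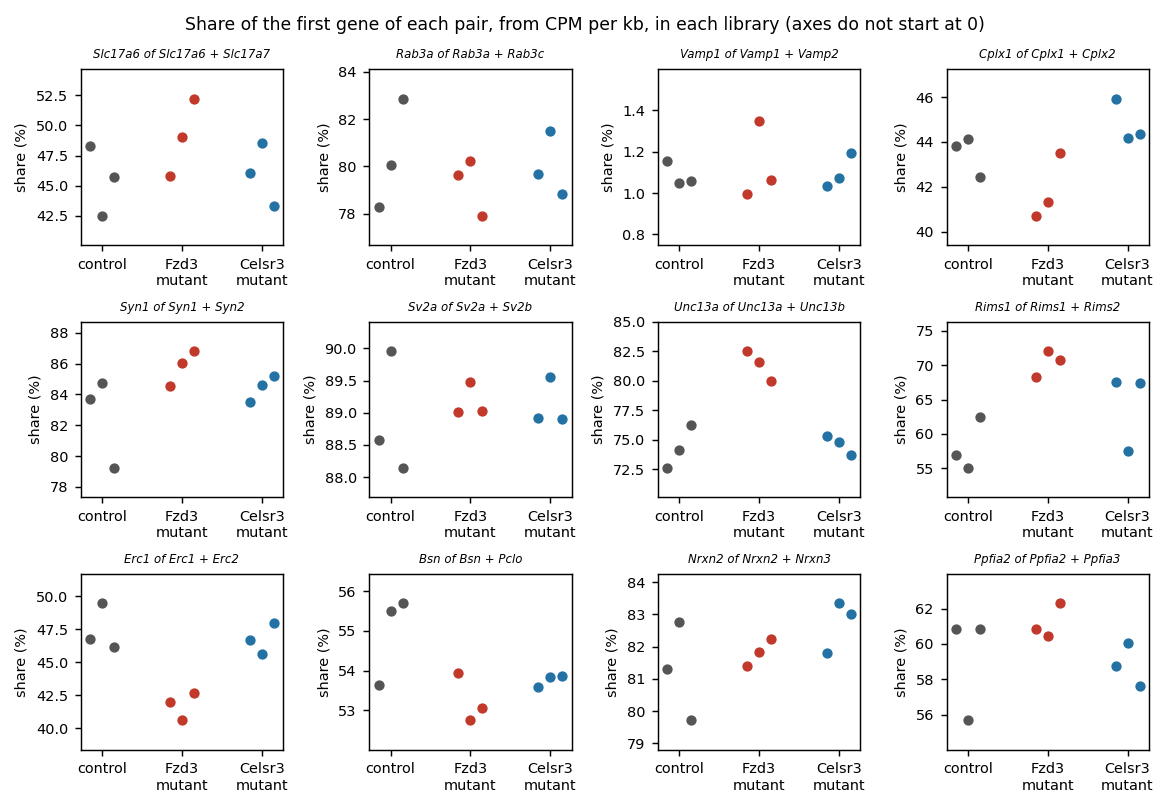
Share of the first gene in each of 12 paralog pairs (percent of the summed CPM per kb), with a point for each of the 9 libraries, on axes that do not start at 0. The *Fzd3* mutant points for *Unc13a* and *Rims1* lie above, and those for *Erc1* below, all other libraries.

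A further list held 78 symbols of other presynaptic genes, 74 of them in the table. In *Fzd3* mutants 32 of the 74 passed the test as higher and 6 as lower, against 15.0% and 14.8% of all lines, with a median log2 fold change of 0.18. Of the largest changes past the test, 7 are given here, all higher. *Syt13*, a synaptotagmin, changed by 0.99 (limma adjusted P = 0.00727) on the log2 scale and *Rims4*, a short RIM, by 0.82 (limma adjusted P = 0.000224). *Stxbp5l*, a tomosyn that binds SNARE proteins, changed by 0.78 (limma adjusted P = 0.00154), and *Syn3*, a synapsin, by 0.70 (limma adjusted P = 0.000327). *Rph3a*, which binds Rab3, changed by 0.69 (limma adjusted P = 0.000162), *Ppfia4*, a liprin, by 0.68 (limma adjusted P = 0.000913) and *Rims3*, another short RIM, by 0.65 (limma adjusted P = 0.00172). In *Celsr3* mutants 0 of the 74 passed the limma test, where 0.307% of all lines did. At an unadjusted limma P below 0.05 there were 3, where 5.45% of all lines were. The list summed to 8049.8, 8175 and 8177 CPM in the control libraries, 8900.0, 8658 and 8682 CPM in the *Fzd3* mutants and 8226, 8156 and 7827 CPM in the *Celsr3* mutants. Its most abundant gene was *Ptprs*, a receptor phosphatase, at 898 ± 74.5 CPM in controls and 858 ± 5.62 CPM in *Fzd3* mutants (s.d., n = 3). *Cplx3*, *Slc17a8* and *Syt12* are not in the table under these symbols, and *Tspoap1* is there under its older symbol *Bzrap1*, also on the list.

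Genes of the other side of the synapse and of cell types were read in the same way, and no gene of any of these lists was at 0 CPM in any library. The counts of each list in *Fzd3* mutants stand beside 15.0% of all lines higher and 14.8% lower. Of 24 postsynaptic scaffold and adhesion genes, 23 were in the table, and in *Fzd3* mutants 12 passed as higher and 1 as lower, with a median log2 fold change of 0.19. They summed to 1950.4, 1949.8 and 1982 CPM in the control libraries, 2477, 2419 and 2383 CPM in the *Fzd3* mutants and 2029.8, 1981 and 1883 CPM in the *Celsr3* mutants, and the most abundant was *Camk2b*, at 253 ± 17.8 CPM in controls (s.d., n = 3). Of 15 markers of postmitotic neurons, 14 were in the table, all but *Tubb3*, and 6 were higher and 2 lower, with a median of 0.03. Without *Fzd3* mutant library 1, control library 1, control library 2 or the variance trend, 4 were higher and 1 lower. These summed to 8503, 8366 and 8421 CPM in the control libraries, 9146, 8785 and 8941 CPM in the *Fzd3* mutants and 8734, 8542 and 8169 CPM in the *Celsr3* mutants, with *Dcx* the most abundant at 1917 ± 67.4 CPM in controls. All 12 markers of apical and basal progenitors were in the table, and 0 were higher and 10 lower, with a median of -0.66. Their sums were 2103, 2218 and 2037 CPM in the control libraries, 1429.6, 1532 and 1474 CPM in the *Fzd3* mutants and 1911, 2043 and 2148 CPM in the *Celsr3* mutants, and *Fabp7* was the most abundant, at 463 ± 38.0 CPM in controls. The *Fzd3* mutants thus had the lowest progenitor sums and the highest sums of the members, of the postsynaptic genes and of the neuron markers.

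Of 10 markers of GABAergic neurons, 1 was higher in *Fzd3* mutants and 0 lower (against 29.8% of all lines past the test), with a median of -0.02, and 2 were higher without *Fzd3* mutant library 3. They summed to 264, 265 and 299 CPM in the control libraries, 369.8, 345 and 285 CPM in the *Fzd3* mutants and 277, 232 and 215 CPM in the *Celsr3* mutants, with *Dlx1* the most abundant at 89.5 ± 7.53 CPM in controls (s.d., n = 3), and *Slc32a1* is also among the other presynaptic genes. Of 12 symbols for markers of thalamus and striatum, with *Drd1* also under its older symbol *Drd1a*, 8 were in the table, among them *Slc17a6*, which is also a member and the most abundant of the 8. *Gbx2*, *Isl1* and *Drd2* are not among them. In *Fzd3* mutants 1 was higher and 3 lower, with a median of -0.29, and the sums were 103, 104 and 111 CPM in the control libraries, 96.3, 93.3 and 96.4 CPM in the *Fzd3* mutants and 103, 103 and 101 CPM in the *Celsr3* mutants. Single libraries changed this count of 4, since 0 passed limma without *Fzd3* mutant library 2, 1 without *Fzd3* mutant library 1, and 2 without *Fzd3* mutant library 3, control library 1 or control library 2. Without the variance trend *Drd1a* (log2 fold change 0.41, limma adjusted P = 0.0524), *Ebf1* (-0.67, 0.054) and *Tcf7l2* (-0.51, 0.063) were lost. With the replicate block *Ebf1* (limma adjusted P = 0.0549) and *Tcf7l2* (0.0572) were lost. Of 9 markers of Cajal-Retzius and subplate neurons, 8 were in the table, and 2 were higher and 0 lower (against the same 29.8%), with a median of 0.22. Their sums were 555, 601 and 567 CPM in the control libraries, 644, 583 and 786 CPM in the *Fzd3* mutants and 554, 563 and 457 CPM in the *Celsr3* mutants, mostly from *Reln*, at 480.4 ± 20.6 CPM in controls. Of 16 symbols for markers of vessels, meninges and blood, 13 were in the table, and 3 were higher and 0 lower (23.1%, against the same 29.8%), with a median of 0.21. Without *Celsr3* mutant library 4, which enters the shared fit, 5 were higher, with *Col1a1* and *Dcn* added. These also passed with only the 2 groups compared in the fit (limma adjusted P = 0.0297 and 0.00132). With the replicate block they passed as well (limma adjusted P = 0.00586 and 0.00248). Their sums were 1837, 1996 and 2113 CPM in the control libraries, 2405, 2559.6 and 1669 CPM in the *Fzd3* mutants and 2499, 1666 and 2797 CPM in the *Celsr3* mutants, and the most abundant was the globin gene *Hba-a1*, at 589 ± 44.3 CPM in controls. In *Celsr3* mutants 0 genes of each of these 7 lists passed the limma test, where 0.307% of all lines did. An unadjusted limma P below 0.05 was reached by 5.45% of all lines. In the lists it was reached by 3 postsynaptic genes, 2 neuron, 1 progenitor, 4 GABAergic, 1 thalamus and striatum, 0 Cajal-Retzius and subplate, and 3 vessel, meninges and blood markers. Of the 10 GABAergic markers 9 had a negative log2 fold change in *Celsr3* mutants, with a median of -0.20. The part of any of these cell types in the values of the members was not tested.

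**Figure D5:**
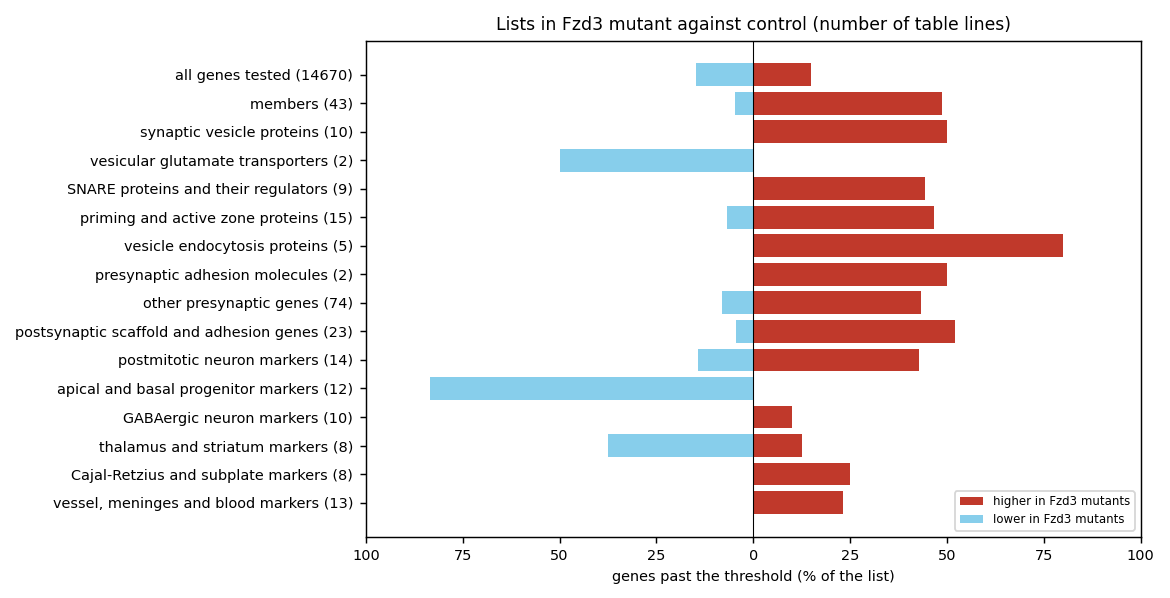
Share of each list (percent of its lines in the table) that passed the limma test as higher or as lower in *Fzd3* mutants against control, for all 14670 lines, the 43 lines of the members, their 6 roles and 8 further lists. The members have 21 lines higher and 2 lower, and the progenitor markers 0 higher and 10 lower.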

How the data were processed

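RNA of embryonic cortex was sequenced by a company, and the authors deposited CPM values for 9 libraries, which total 990141 to 1012199 CPM over the listed genes. The submitters' processing notes name FastQC, TopHat, TopHat2, Bowtie, Cufflinks 2.1.1 and edgeR 2.12 and the builds GRCm38 and GRCh37. Strand use, the counting of reads and the annotation are not given in the sources used here, so reads of near-identical, overlapping or antisense genes could have been split between them. The number of sample columns left unused was 0.

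Members and lists were chosen by symbol with earlier results of these data known. Genotypes and replicate numbers were taken from the labels. The test was limma 3.58.1 in R 4.3.3, with the variance following a trend on abundance, on log2(CPM + 0.5). A minimum mean of 0.5 CPM removed no gene. P values had Benjamini-Hochberg adjustment over 14670 lines, with a threshold of 0.05. Log2 fold changes on this scale understate changes of genes with low values. Shares of paralogs were compared by exact two-sided permutation. Tables and plots were made with matplotlib 3.10.9, scipy 1.17.1, pandas 2.3.3 and numpy 2.4.6 in Python 3.11.15. Exon lengths are the union of annotated exons in GENCODE M21, which need not be the annotation the authors used. Depth, from 39857305 to 69600589 reads per library, assumes that the smallest step of a column is 1 read, which too few low values were there to establish. The fit was tested on simulated data.

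Values in every library are given for the 5 members with the highest control CPM per kb, for members past the threshold in *Celsr3* mutants, and for up to 10 past it in each direction with the largest change in *Fzd3* mutants. The rule for the other presynaptic genes was to name the 8 with the largest change past the threshold, of which 7 are reported, and for every other list the most abundant gene. *Doc2b*, *Unc13a* and *Amph* joined these once their values had been seen. Also tried were pseudocounts of 0.1 and 1 CPM, no filter and a filter at 5 CPM, rescaling to a total of 1000000, quantile normalization, only the 2 groups compared in the fit, the replicate block, no variance trend, shares without division by length, and leaving out each library. The planned count test was not run.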

Additional observations from a re-analysis of the deposited data

How the results depend on the processing

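In *Fzd3* mutants against control, 23 members passed the limma test, and over 9 alternative settings 22 to 24 did. Leaving out each library gave 21 to 29. Of the 23, 19 passed in every one of the 18 alternative fits in which they were tested, and *Amph*, *Slc17a7*, *Unc13a* and *Vamp2* did not. The second line of *Pclo*, among the 19, is removed by the filter at 5 CPM. The members' median stayed between 0.23 and 0.31. In the direct comparison 20 to 29 members passed over the settings and 21 to 31 without each library. In *Celsr3* mutants against control 0 members passed limma in each of the 18 fits, and the median lay between -0.06 and 0.01, on either side of 0.

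With the replicate block, the number of all genes past the threshold fell from 45 to 29 in *Celsr3* mutants against control and from 4346 to 2101 between the mutants, and 8 members no longer passed between the mutants (*Amph*, *Cplx2*, *Nrxn2*, *Nrxn3*, *Nsf*, *Sv2a*, *Syp* and *Vamp2*). In this fit *Celsr3* mutant library 4, the only library of its number, has a term of its own and adds nothing to the comparisons. How far this accounts for the lower counts was not tested. Deviations from the group means had a mean correlation across genes of -0.0359 between libraries of the same number (7 pairs, range -0.1988 to 0.1918). Between libraries of other numbers it was 0.0123 (20 pairs, range -0.1625 to 0.1884). These ranges overlapped, so the correlations cannot decide whether the numbers pair the libraries.

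The planned count test was not run, because each column held too few low values to establish that its step is 1 read. Leaving out the division by length cannot change which paralog shares overlap, so it is no check of them. If 1 step is 1 read, 3 reads are 0.0427 to 0.0753 CPM, below every value of a member. Having 3 libraries a genotype limits the precision.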
